A study of Mus musculus with 6 samples.

Results

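Fatty acid oxidation was examined here through 40 genes, chosen by name as the enzymes of mitochondrial and peroxisomal fatty acid breakdown, the proteins that build peroxisomes, and a pair of nuclear receptors of the pathway. All 40 were found among the 15824 genes of the expression table: 18 mitochondrial enzymes and carriers, 8 peroxisomal enzymes and transporters, 12 peroxins and 2 receptors. Their RNA was measured by polyA-selected RNA sequencing in cells labelled as alveolar macrophages, from mice aged 8 weeks. The cells had been sorted from lung by flow cytometry. There were 3 libraries of wild-type (WT) mice and 3 of mice labelled as knockouts (KO) of Men1, the gene of menin, a nuclear scaffold protein that binds histone methyltransferases. The labels name no allele, Cre driver, strain or sex and do not say whether each library came from its own mouse, so the spread behind each p-value may be technical.

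Mitochondrial beta-oxidation starts when the carnitine shuttle carries a long-chain acyl group across the mitochondrial membranes, after which rounds of dehydrogenation, hydration, dehydrogenation and thiolytic cleavage release acetyl-CoA. The first dehydrogenation hands its electrons to the electron transfer flavoprotein and on to the respiratory chain. Peroxisomes shorten very long and branched chains with an oxidase that makes hydrogen peroxide, which catalase removes, and they depend on peroxins to import their enzymes. Alveolar macrophages take up and break down surfactant lipid, and lipid handling under the receptor PPAR gamma belongs to their known identity.

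Among the facts of the whole series, the libraries held 19955242 to 20151990 estimated counts each. Levels are given as CPM, the count of a gene as a part of its library on a common scale, after adjustment with trimmed mean of M-values (TMM) factors. Men1 fell from 29.98 ± 1.2 CPM (SD, n = 3) in WT to 7.88 ± 0.458 CPM in KO. Libraries of a group were much alike (estimated biological coefficient of variation 1.66%), and at an adjusted p threshold of 0.05 edgeR's quasi-likelihood test called 69.2% of the 11817 tested genes, 34.4% higher and 34.9% lower in KO, so that a call by itself sets no gene apart here. Calls that also reached 1.25-fold covered 36.5% of genes and calls that reached 2-fold covered 8.2%. Of the 13 alveolar macrophage markers examined, 12 were in the table and summed to 367 to 381 CPM in WT and 1250 to 1300 CPM in KO, while Fabp1, Plet1, Ear2 and Ear6 had at most 3 counts in any library. Marco alone made that sum higher in KO: without it the sum was 195 to 206 CPM in WT and 134 to 136 CPM in KO, and of the 7 tested markers 3 were higher and 4 lower. Among the lower was Siglecf, itself at low counts: 33, 47 and 46 in the WT libraries and 29, 27 and 23 in the KO libraries (log2 fold change -0.615). Ear1 had at most 4 counts in any library. Siglecf, Fabp1, Plet1, Ear1, Ear2 and Ear6 were thus low or near the floor in WT as well, while Marco (172 CPM in WT) and Atp6v0d2 (119 CPM) were not. The markers therefore bear out the cell label only in part. The sum of 13 fibroblast, smooth muscle and mesothelial markers was 96.4 to 99.1 CPM in WT and 17.2 to 20.1 CPM in KO, and that of 8 genes of dividing cells was 834 to 843 CPM and 347 to 354 CPM. Summed epithelial (5.06 to 6.09 against 4.74 to 6.03 CPM), endothelial (77.4 to 80.5 against 65.7 to 68.4), lymphoid (7.17 to 7.61 against 12.3 to 14.0), neutrophil (850 to 869 against 684 to 704), dendritic (14.8 to 16.5 against 23.5 to 25.2) and erythroid markers (0.0491 to 0.439 against 0.307 to 0.761) were low beside the sum of 10 macrophage markers, 28000 to 29100 CPM in WT and 33000 to 33700 CPM in KO. Lyz2 was the most abundant macrophage marker. Without Lyz2 the macrophage sum was 10100 to 10200 CPM in WT against 15200 to 15300 CPM in KO, and of the 10 markers 8 were higher and 0 lower. The lower neutrophil sum in KO came from Mmp8, and without it the sum was 57.3 to 60.7 CPM in WT against 138 in each KO library. The summed RNA of 4 Y-linked genes was 162 to 169 CPM in the WT libraries and 0 to 0.102 CPM in the KO libraries, so genotype and the presence of Y transcripts cannot be told apart. The part of these marker and Y-linked differences in the results below was not tested, and in such bulk samples fewer cells of a type and less RNA per cell cannot be told apart.

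Gene pairs with shared or near-identical sequence bear on how the values can be read, and they are shown first. Acaa1a and Acaa1b encode near-identical copies of the peroxisomal thiolase, both on chromosome 9 of GRCm38. Their coding sequences, 1272 bases each without the stop codon, differed at 44 positions and were 96.5% identical, with a longest identical run of 327 bases. Of all 100-base windows along them, 24.1% held no difference, and a read that lies within such a window cannot be assigned to a copy by its sequence. The stretch from coding position 259 to 318, counted from the start codon, is shown because it held 11 of the differences, which are in capitals.
Acaa1a: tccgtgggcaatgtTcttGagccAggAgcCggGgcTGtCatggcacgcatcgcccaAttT
Acaa1b: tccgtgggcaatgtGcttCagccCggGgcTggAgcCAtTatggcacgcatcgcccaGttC

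The promoter windows of this pair are shown because the copies moved in opposite directions. In these RefSeq windows of GRCm38.p6, from 250 bases before to 50 after a transcript start, CCAAT and its reverse complement ATTGG are in capitals. The first window, which belongs to a start inside the annotated span of Acaa1a, lies on the plus strand at chr9:119341044-119341343, and the other on the minus strand at chr9:119157044-119157343.
Acaa1a: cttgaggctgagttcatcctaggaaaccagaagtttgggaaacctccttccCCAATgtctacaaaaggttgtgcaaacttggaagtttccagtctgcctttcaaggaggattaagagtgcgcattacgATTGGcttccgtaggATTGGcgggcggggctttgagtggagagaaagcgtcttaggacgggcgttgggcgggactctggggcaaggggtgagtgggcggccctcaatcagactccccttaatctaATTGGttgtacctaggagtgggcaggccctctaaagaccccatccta
Acaa1b: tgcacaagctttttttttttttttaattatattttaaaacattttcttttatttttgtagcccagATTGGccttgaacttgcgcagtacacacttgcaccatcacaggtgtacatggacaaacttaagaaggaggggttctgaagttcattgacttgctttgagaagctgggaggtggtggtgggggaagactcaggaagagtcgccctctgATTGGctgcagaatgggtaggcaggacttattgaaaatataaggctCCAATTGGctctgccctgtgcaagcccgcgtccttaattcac

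Hadha and Hadhb, the alpha and beta subunits of the mitochondrial trifunctional protein, start head to head on chromosome 5, with start sites 273 bases apart at positions 30154980 and 30155253. The Hadhb window on the plus strand, chr5:30155003-30155302, is shown with the 228 bases it shares with the Hadha window in capitals.
Hadhb: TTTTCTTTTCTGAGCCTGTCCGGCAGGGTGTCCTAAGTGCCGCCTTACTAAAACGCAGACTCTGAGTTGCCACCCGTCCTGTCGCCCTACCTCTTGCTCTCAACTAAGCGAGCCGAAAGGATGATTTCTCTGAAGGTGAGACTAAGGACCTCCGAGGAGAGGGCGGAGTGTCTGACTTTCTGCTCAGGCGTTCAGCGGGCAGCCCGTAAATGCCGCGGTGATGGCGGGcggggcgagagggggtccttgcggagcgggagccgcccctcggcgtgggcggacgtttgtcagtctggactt

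Promoter motifs were counted over all members. Promoter windows were matched for 35 of the 40 members (39 windows), and Acaa2, Decr1, Hsd17b4, Pex2 and Pex19 were not matched. Reading both strands, AGGTCA, the core motif of nuclear receptors, was in 6 windows (15.4%) against 16.3% of all 32851 windows, and CCAAT was in 15 (38.5%) against 37.4%. TCAAGGTCA, CACGTG and the direct repeat of AGGTCA with 1 base between and at most 1 mismatch, the element bound by PPAR with RXR, were in 0 member windows, against 0.423%, 7.15% and 0.554% of all windows, shares too small for 39 windows to show a difference for the first and last. AGGTCA lies within the longer receptor motifs, so these counts overlap, and a window without a match says only that these letters were not in it.

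Per length, the members spanned a wide range of levels. On the deposited FPKM scale (fragments per gene length and sequencing depth), catalase (Cat) was the highest of them at a mean of 254.9 in WT and 246.9 in KO, followed by Acaa1a at 104 and 138. Among the mitochondrial enzymes Etfb, the beta subunit of the electron transfer flavoprotein, was highest with 81.5 and 90.6 FPKM. The highest peroxin was Pex2 at 25.5 and 25.7 FPKM. The peroxisomal bifunctional enzyme Ehhadh, at 0.677 and 0.627 FPKM, and Acaa1b, at 1.79 and 0.0267, were the lowest enzymes of the list.

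**Figure D1:**
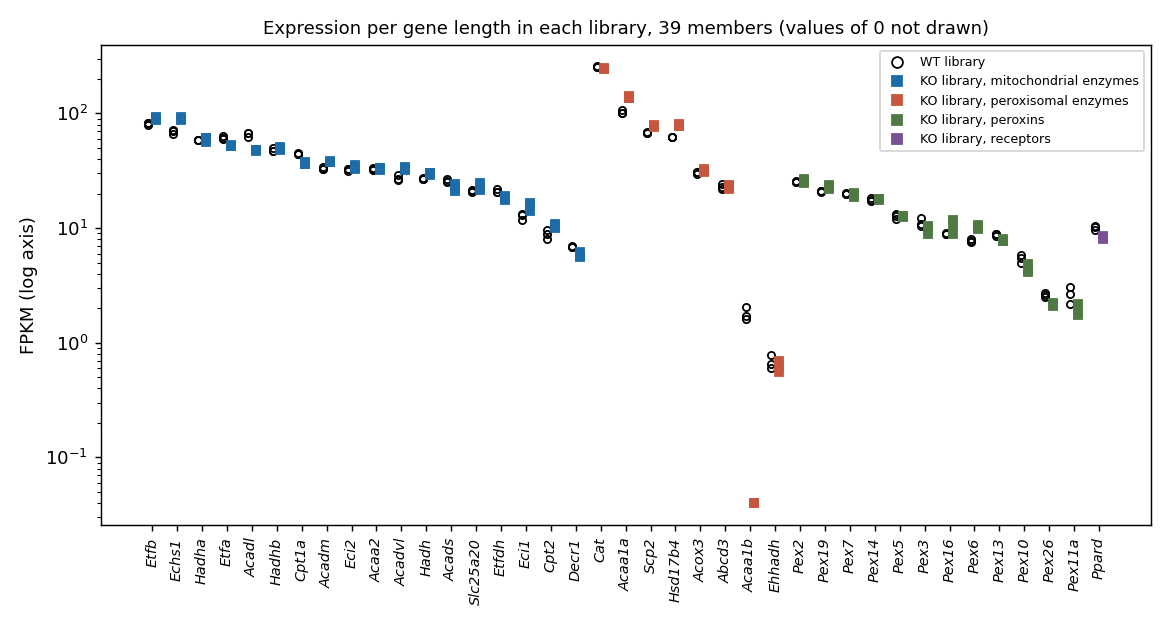
Deposited FPKM (log axis) of 39 members in each of the 6 libraries, WT as open circles and KO as filled squares. Members are ordered by mean FPKM over the 6 libraries within mitochondrial enzymes, peroxisomal enzymes, peroxins and the receptor Ppard. Ppara is left out and a value of 0 is not drawn. Cat stands highest at about 250 FPKM, and the WT and KO points of Acaa1b lie far apart.

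Of the 39 members that could be tested, 27 (69.2%) were called, the same share as in all genes: 18 were higher and 9 lower in KO. The absolute log2 fold change had a median of 0.188 over these members and 0.243 over all tested genes. A call with at least 1.25-fold change was reached by 9 members (23.1% against the 36.5% above), and 1 member, Acaa1b, reached 2-fold. CPM values of the groups did not overlap for 31 of the 39, against 71.2% of all tested genes. Ppara did not pass the filter on low counts.

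On TMM-scaled counts the classes differed in how many members were called. Of the 18 mitochondrial enzymes, 11 were higher and 6 lower in KO, so that 94.4% were called, against 72.4% of the 7169 genes whose mean CPM lay in the same range. Of the 8 peroxisomal enzymes, 4 were higher and 1 lower, so that 62.5% were called, against 69.2% of all tested genes. Of the 12 peroxins, 3 were higher and 1 lower, so that 33.3% were called, against 67.5% of the 6499 genes in their CPM range. The median log2 fold change was 0.11 for the mitochondrial enzymes, 0.08 for the peroxisomal enzymes and 0.04 for the peroxins, against 0.00 for all tested genes (0.001 before rounding). These counts describe the classes, and no test compared them.

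The signs of such small values rested on the scale. On log2(TPM + 1), in which the per-length values of each library share 1 fixed sum, the median of all genes was -0.12 and the split of calls was 2463 higher and 5781 lower, in place of 4060 and 4119. Relative to that shift, the class medians were 0.10 for the mitochondrial enzymes, 0.06 for the peroxisomal enzymes and 0.03 for the peroxins on TPM, and 0.11, 0.08 and 0.04 on TMM-scaled counts. The counts of calls moved as well. On TPM, 4 mitochondrial enzymes were higher and 6 lower, and 1 peroxin was higher and 6 lower. With library totals only they were 8 and 6, and 3 and 5, against 3391 and 4829 of the 11817 tested genes. On FPKM they were 8 and 6, and 2 and 5, against 3229 and 4677. With DESeq2 they were 9 and 4, and 3 and 0, against 3510 and 3527. More peroxins were thus called with library totals only, on FPKM and on TPM than on TMM-scaled counts, so their low share of calls also rested on the scale.

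**Figure D2:**
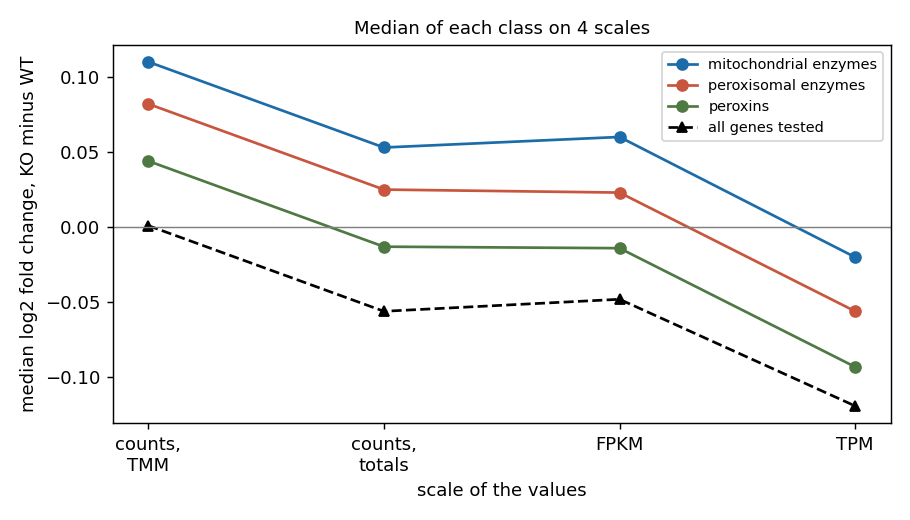
Median log2 fold change (KO minus WT) of the 3 classes and of all tested genes on TMM-scaled counts, counts scaled by library totals only, log2(FPKM + 1) and log2(TPM + 1). All 4 medians are highest on TMM-scaled counts and lowest on TPM, and all 3 classes stay above the median of all genes on each of these scales.

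At the carnitine shuttle, the entry enzyme fell while the later steps rose. Cpt1a, the outer-membrane carnitine palmitoyltransferase that malonyl-CoA inhibits (chr19:3322326-3385735), had 174, 174 and 172 CPM in WT against 147, 147 and 154 in KO. The KO libraries were all below the WT libraries, and Cpt1a fell by 0.22 on the log2 scale (SE 0.0263, adjusted p = 4.12e-09). Cpt2, the inner-membrane transferase that returns the acyl group to CoA, had 17.7, 15.8 and 19.1 CPM in WT against 22.2, 21.5 and 20.8 in KO, without overlap, and rose by 0.30 on the log2 scale (SE 0.0646, adjusted p = 1.35e-04). Slc25a20, the carnitine-acylcarnitine carrier of the inner membrane, rose by 0.19 from 29.2 ± 0.250 to 33.3 ± 2.14 CPM (SD, n = 3). Neither Cpt2 nor Slc25a20 was called on TPM.

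The acyl-CoA dehydrogenases, which take the first step of each round for different chain lengths, moved in both directions. Acadl, the long-chain enzyme (chr1:66830839-66863309), had 105, 107 and 99.9 CPM in WT against 78.4, 79.5 and 77.7 in KO. Every KO library was thus well below every WT library, and the log2 fold change of -0.41 (SE 0.0325, adjusted p = 1.67e-13) was the largest decrease among the mitochondrial enzymes. Acadvl, the very long-chain enzyme of the inner membrane, had 47.9, 48.9 and 52.7 CPM in WT against 61.9, 64.2 and 61.1 in KO. Its groups did not overlap either, and it rose by 0.32 on the log2 scale (SE 0.0400, adjusted p = 6.65e-09). Acadm, the medium-chain enzyme, had 57.7, 55.3 and 56.0 CPM in WT against 66.2, 67.4 and 67.9 in KO, a rise of 0.25 (SE 0.0361, adjusted p = 1.27e-07). Acads, the short-chain enzyme, was lower by a small margin, with 38.99 ± 0.992 CPM in WT against 35.4 ± 2.67 in KO (SD, n = 3). Its log2 fold change was -0.14 (adjusted p = 0.0118), and the call was lost without WT replicate 3 (adjusted p = 0.0642), without KO replicate 2 (0.137) and with DESeq2 (0.0616).

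The enzymes of the later steps rose or were not called. Echs1, the short-chain enoyl-CoA hydratase (chr7:140105710-140116421), had 75.8, 80.7 and 81.7 CPM in WT against 106, 111 and 105 in KO. The groups lay far apart beside their spread, and the log2 fold change of 0.43 (SE 0.0334, adjusted p = 7.34e-14) was the largest increase among the mitochondrial enzymes. Hadh, the short-chain 3-hydroxyacyl-CoA dehydrogenase, rose by 0.22 from 38.3 ± 0.617 to 44.4 ± 1.11 CPM (SD, n = 3), though it was not called on TPM. Acaa2, the mitochondrial thiolase, was at 37.4 ± 0.550 CPM in WT against 39.6 ± 0.730 in KO and was the 1 mitochondrial enzyme not called, with a log2 fold change of 0.08 (95% interval -0.006 to 0.169, adjusted p = 0.091) that was -0.06 on TPM.

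Both subunits of the trifunctional protein, which joins hydratase, dehydrogenase and thiolase activity for long chains, changed by a similar small amount. Hadha had 136, 136 and 138 CPM in WT against 148, 139 and 149 in KO, and Hadhb had 82.2, 79.5 and 78.4 CPM in WT against 82.7, 85.1 and 89.5 in KO. The lowest KO library lay just above the highest WT library for both. The log2 fold changes were 0.08 for Hadha (SE 0.0285, adjusted p = 0.00972) and 0.10 for Hadhb (SE 0.0342, adjusted p = 0.00991), and both turned to -0.06 and -0.04 on log2(TPM + 1). Without KO replicate 3 neither was called, with adjusted p = 0.0724 for Hadha and 0.0987 for Hadhb. The ratio of Hadhb to Hadha in FPKM, for the pair with the shared promoter region printed above, was 0.818 ± 0.027 in WT and 0.827 ± 0.038 in KO (SD, n = 3, exact two-sided permutation test p = 0.9).

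The electron transfer flavoprotein, a dimer of the Etfa and Etfb products that collects electrons from the dehydrogenases, had subunits that moved in opposite directions. Etfa (chr9:55454436-55512243) had 67.8, 66.2 and 70.4 CPM in WT against 61.0, 59.9 and 60.3 in KO. Etfb (chr7:43444072-43457800) had 45.8, 46.1 and 44.7 CPM in WT against 51.0, 54.9 and 53.0 in KO. Neither gene had overlapping groups: Etfa fell (log2 fold change -0.17, SE 0.0361, adjusted p = 6.81e-05) and Etfb rose (0.22, SE 0.0404, adjusted p = 1.37e-05), the latter not called on TPM. Within each library, where scaling cancels, the Etfb to Etfa ratio in FPKM was 1.35, 1.37 and 1.26 in WT and 1.66, 1.81 and 1.73 in KO. All KO ratios were higher, by 1.31-fold, which follows from the opposite moves of both genes. The exact two-sided permutation test gave p = 0.1, the smallest it can give for 3 libraries against 3. It adds no support, as the pair was chosen after its values were seen. Etfdh, the dehydrogenase that passes the electrons on to ubiquinone, fell by 0.16 on the log2 scale, from 40.2 ± 1.47 to 35.9 ± 1.37 CPM (SD, n = 3, adjusted p = 0.00224).

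The auxiliary enzymes that handle double bonds of unsaturated fatty acids also split. Eci1, a delta3-delta2-enoyl-CoA isomerase, had 9.72, 9.63 and 8.73 CPM in WT against 12.2, 12.9 and 11.0 in KO and rose by 0.36 (SE 0.0836, adjusted p = 2.49e-04). Its relative Eci2 rose by 0.12 from 39.4 ± 0.300 to 42.8 ± 1.30 CPM, a call lost with library totals only (adjusted p = 0.195), with DESeq2 (0.0787) and on FPKM (0.0589) and TPM (0.962). Decr1, the 2,4-dienoyl-CoA reductase, was lower, with 16.8 ± 0.334 CPM in WT against 14.9 ± 0.880 in KO (log2 fold change -0.18, adjusted p = 0.0188). The Decr1 call was lost with DESeq2 (adjusted p = 0.0974) and without WT replicate 2 (0.06), KO replicate 1 (0.102) or KO replicate 2 (0.0516).

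**Figure D3:**
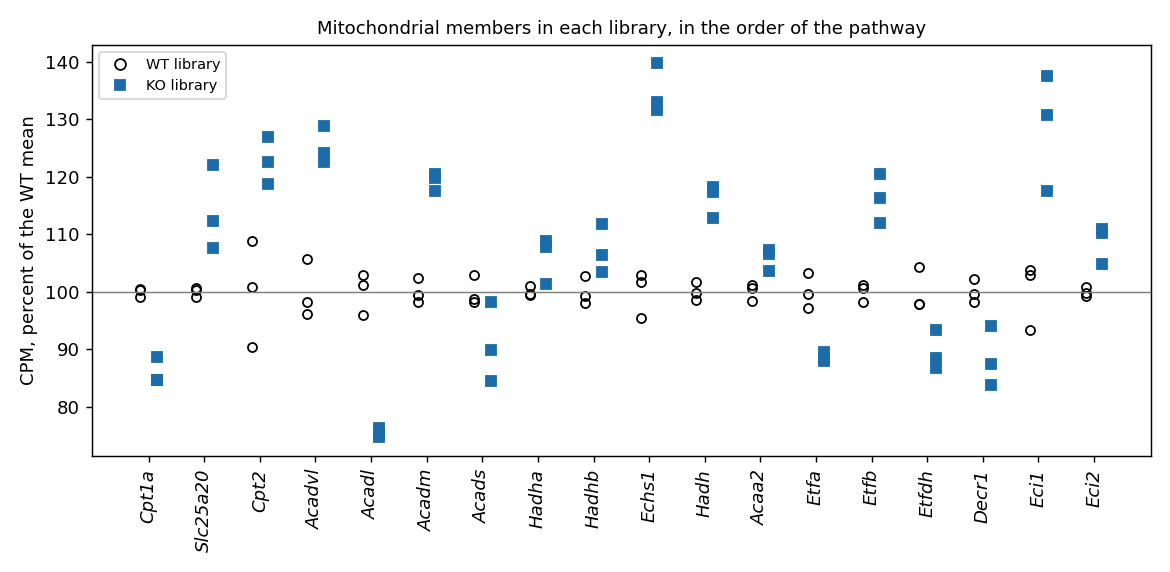
CPM of the 18 mitochondrial members in each library as a percent of the WT mean, in the order of the pathway from the carnitine shuttle to the auxiliary enzymes, with WT and KO points in different colours. KO points lie below WT points for Cpt1a, Acadl, Acads, Etfa, Etfdh and Decr1 and above them for the other 12.

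In the peroxisome, Hsd17b4, Acaa1a and Scp2 rose, while of the other enzymes of those steps Ehhadh was not called and Acaa1b fell. Hsd17b4, the D-bifunctional protein that hydrates and dehydrogenates straight and branched chains, had 142, 143 and 143 CPM in WT against 195, 187 and 185 in KO. Acaa1a, the peroxisomal thiolase (chr9:119341028-119350296), had 141, 143 and 150.4 CPM in WT against 198, 199 and 205 in KO. Both had KO libraries far above all WT libraries, with log2 fold changes of 0.41 for Hsd17b4 (SE 0.0263, adjusted p = 4.68e-16) and 0.47 for Acaa1a (SE 0.0271, adjusted p = 1.69e-17). Scp2, whose gene encodes the thiolase of branched chains and a lipid carrier, had 157, 156 and 156 CPM in WT against 187, 187 and 182 in KO, a rise of 0.25 (SE 0.0253, adjusted p = 1.04e-10). Acox3, an acyl-CoA oxidase of branched chains, rose by 0.12 from 110.0 ± 1.96 to 119 ± 3.14 CPM (SD, n = 3, adjusted p = 6.8e-04), which was not called with library totals only (adjusted p = 0.0692) or on FPKM (0.12) and was -0.02 on TPM.

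Acaa1b went the other way from its copy Acaa1a. Its estimated counts were 47.7, 38.9 and 40.4 in the WT libraries and 1.03, 1.03 and 0 in the KO libraries. Rounded, they summed to 127 counts in WT and 2 in KO, a ratio of 63.5 with a 95% interval of 17.2 to 530, which covers counting error only (edgeR adjusted p = 1.34e-13). A count of 0 in a library allows up to 3 counts, here 0.15 CPM. Acaa1b (chr9:119148043-119157093) made up 1.63%, 1.32% and 1.29% of the counts of the pair in WT and 0.0264%, 0.0265% and 0% in KO, so that Acaa1a carried nearly all of them in both groups. Because the copies share stretches without a difference, as given above, and the way reads were counted is not stated, the split between them is uncertain.

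Overlapping genes are a limit for some of the members above. The spans of 16 members overlap another annotated gene, 13 of them on the opposite strand, and strand use in the counting is not stated. Acaa1a shares 1736 bases with Myd88 on the opposite strand, which rose from 82.9 to 137 CPM (log2 fold change 0.72), and Echs1 shares 678 bases with Paox, which rose by 0.53. Etfdh shares 422 bases with 4930579G24Rik (-0.36) and Pex13 shares 286 bases with Pus10 (-0.30), both called lower, while Acadvl shares 2119 bases with Dvl2 (0.03) and Pex3 shares 249 bases with Adat2 (0.08), neither called. On the same strand, Pex6 shares 14079 bases with Gm26904, Etfb shares 13673 with Gm45233 and Scp2 shares 52607 with Podn. Podn was at 0.0328 CPM in WT and 0 in KO, and the expression table held no values for Gm26904 and Gm45233. Reads from such stretches, on either strand, cannot be told apart here.

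The other 3 peroxisomal members were not called. Cat, which breaks down the hydrogen peroxide of the oxidases, had 552, 551 and 560 CPM in WT against 565, 553 and 559 in KO, overlapping values with a log2 fold change of 0.01 (95% interval -0.026 to 0.051, adjusted p = 0.571) that turned to -0.04 with library totals only (adjusted p = 0.0391) and -0.13 on TPM (limma, adjusted p = 1.97e-04), both called lower. Abcd3, a transporter of acyl-CoA in the peroxisomal membrane, was at 71.0 ± 3.68 CPM in WT against 73.4 ± 2.80 in KO (95% interval of the log2 fold change -0.029 to 0.125, and -0.09 on TPM). Ehhadh, the L-bifunctional enzyme, was at 1.76 ± 0.218 and 1.68 ± 0.179 CPM, where the depth left a wide interval of -0.467 to 0.329.

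Added over the class, the 8 peroxisomal enzymes summed to 544.7 ± 4.91 FPKM in WT and 596.3 ± 5.80 FPKM in KO (1.09-fold, and 1.03-fold on TPM). Without catalase they summed to 289.8 ± 2.90 FPKM in WT and 349.4 ± 2.26 FPKM in KO (SD, n = 3), 1.21-fold higher, and 1.14-fold higher on TPM. The summed FPKM of the mitochondrial enzymes was 678 ± 3.72 in WT and 689.7 ± 0.607 in KO, but 954 and 918 on TPM, so its direction rests on the scale. The peroxins summed to 144 ± 1.65 and 145 ± 2.70 FPKM and to 203 and 193 on TPM.

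**Figure D4:**
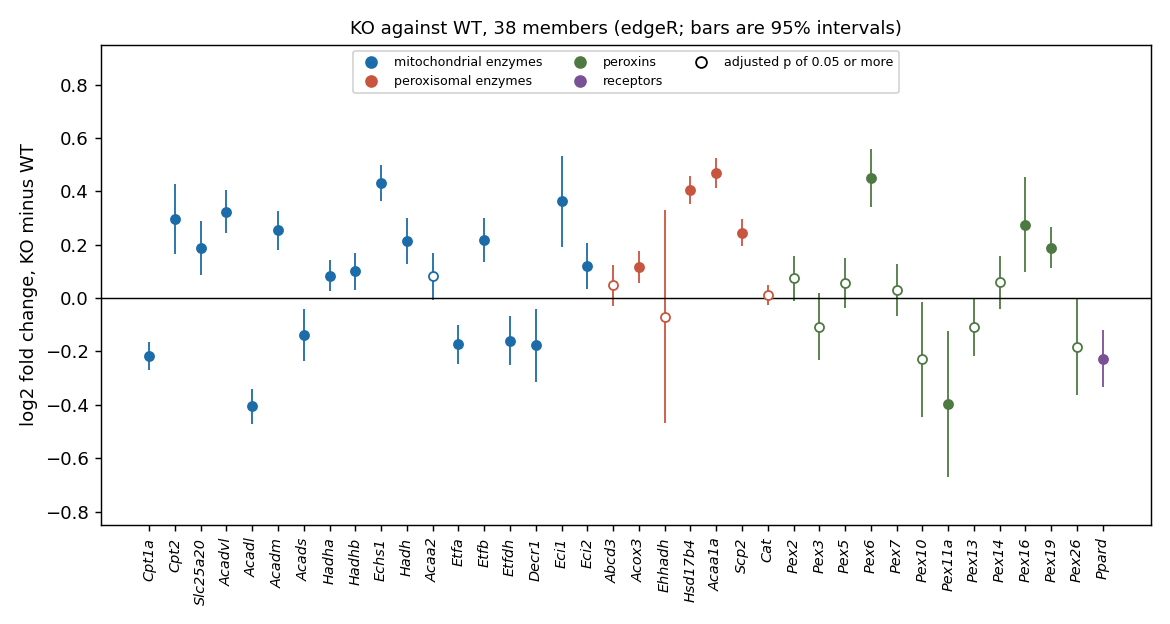
Log2 fold change (KO minus WT) with its 95% interval for 38 members by class, from edgeR on TMM-scaled counts; filled points have an adjusted p below 0.05 and open points do not, and Acaa1b and Ppara are left out. Acaa1a, Pex6, Echs1 and Hsd17b4 lie farthest above 0, and Acadl and Pex11a farthest below.

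Most peroxins were not called. Pex6, Pex16 and Pex19 rose and Pex11a fell. Pex6, an ATPase that helps to pull the import receptor Pex5 back out of the membrane (chr17:46711476-46725543), had 22.6, 21.7 and 21.1 CPM in WT against 29.4, 31.0 and 29.0 in KO. This was a rise of 0.45 without overlap (SE 0.0532, adjusted p = 2.41e-09). Pex19, the cytosolic chaperone of membrane proteins, rose by 0.19 from 57.6 ± 0.635 to 65.6 ± 2.92 CPM (adjusted p = 4.39e-05), although not on TPM. Pex16, which helps insert membrane proteins, had 9.72, 10.1 and 9.85 CPM in WT against 13.6, 10.2 and 12.1 in KO (log2 fold change 0.28, adjusted p = 0.00623). Its call was lost without KO replicate 1 (adjusted p = 0.0986) and on FPKM and TPM.

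Pex11a, a membrane protein of peroxisome division and a known PPAR alpha target, had 5.10, 4.18 and 5.95 CPM in WT against 3.50, 3.73 and 4.33 in KO. The highest KO library lay above the lowest WT library, and the log2 fold change was -0.40 (SE 0.135, adjusted p = 0.00949). The call was lost without WT replicate 3 (adjusted p = 0.116), without KO replicate 1 (0.0553) and with DESeq2 (0.0559).

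The remaining 8 peroxins cover docking (Pex13, Pex14), import receptors (Pex5, Pex7), ubiquitin ligase subunits (Pex2, Pex10), membrane assembly (Pex3) and the membrane anchor of Pex6 (Pex26). Pex2 (43.2 ± 0.659 and 45.5 ± 1.69 CPM in WT and KO), Pex5 (34.7 ± 1.79 and 36.1 ± 0.170), Pex7 (30.5 ± 0.415 and 31.2 ± 1.12) and Pex14 (28.4 ± 0.829 and 29.6 ± 0.272) had the higher means in KO. The means of Pex13 (25.6 ± 0.455 and 23.7 ± 0.527), Pex3 (20.4 ± 0.954 and 18.96 ± 1.01), Pex26 (9.37 ± 0.501 and 8.25 ± 0.292) and Pex10 (7.004 ± 0.593 and 5.98 ± 0.475) were lower in KO, none past the threshold. The 8 log2 fold changes ran from -0.23 for Pex10 (adjusted p = 0.0532) to 0.07 for Pex2 (0.112). Pex26 (-0.18, adjusted p = 0.0629) and Pex13 (-0.11, 0.0666) were also close to the threshold. The intervals of Pex5 (-0.037 to 0.152), Pex14 (-0.041 to 0.158), Pex7 (-0.066 to 0.129) and Pex3 (-0.232 to 0.018) spanned 0. On TPM, Pex2 (-0.07), Pex5 (-0.08), Pex14 (-0.08) and Pex7 (-0.11) all turned negative, and Pex7 was then called lower.

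Ratios of working partners were computed within each library for 5 pairs, chosen after their values were seen. Besides the pairs above, Acadm to Acadl in FPKM was 0.506 ± 0.021 and 0.799 ± 0.015 (1.58-fold), Cpt2 to Cpt1a was 0.199 ± 0.020 and 0.284 ± 0.017 (1.43-fold), and Pex14 to Pex13 was 2.02 ± 0.034 and 2.28 ± 0.057 (1.13-fold). In 4 of the 5 pairs the groups did not overlap (exact two-sided permutation p = 0.1, adjusted over the 5 pairs 0.125), and the exception was Hadhb to Hadha. Each of those 4 joined a gene whose CPM was higher in all KO libraries to one lower in all of them. Their separation therefore followed from the choice of pairs, and the p-values add no support.

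**Figure D5:**
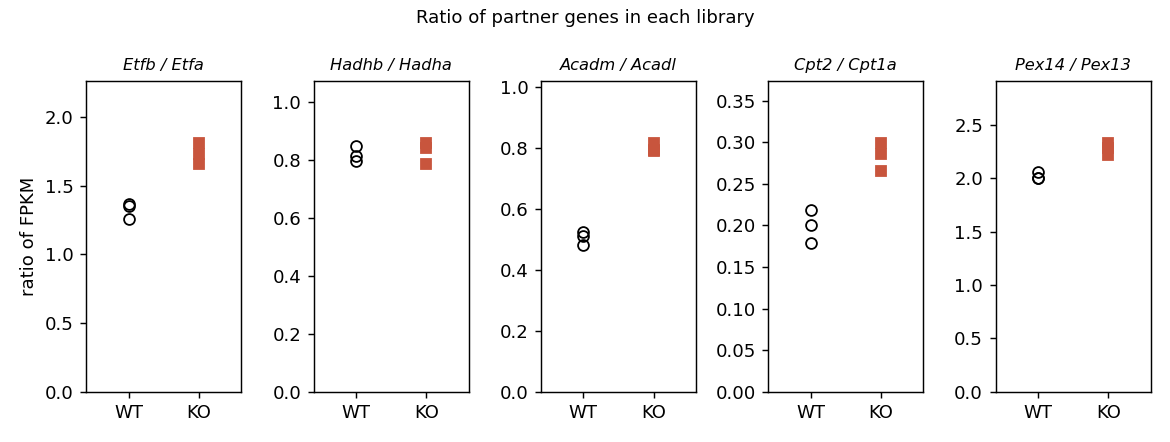
FPKM ratios of 5 partner pairs in each library, with WT as open circles and KO as filled squares, each panel on its own axis from 0. The Acadm to Acadl, Cpt2 to Cpt1a, Etfb to Etfa and Pex14 to Pex13 ratios are all higher in KO, and the Hadhb to Hadha points overlap.

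Of the receptors, Ppara, the PPAR that drives fatty acid oxidation in liver, had 1, 1 and 0 counts in the WT libraries and 0 in each KO library, at or under the floor of 3 counts, so no fold is given. Ppard, which shares many of its target genes, had 27.0, 29.1 and 29.7 CPM in WT against 24.8, 24.6 and 23.8 in KO. The groups did not overlap and Ppard fell by 0.23 on the log2 scale (SE 0.0529, adjusted p = 2.71e-04). Pparg, the alveolar macrophage receptor and a marker named after its values were seen, averaged 19.0 CPM in WT against 13.1 in KO and was also called lower.

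The other genes of the pathway were read from lists drawn up by pathway membership. The compartment of each gene, here and in the classes of members, was not checked, so the class and list names are approximate. The calls counted for these lists are those on TMM-scaled counts. Of 29 other mitochondrial genes of fatty acid and acyl-CoA oxidation, all tested, 16 were higher and 3 lower in KO, with a median log2 fold change of 0.22. The share called was 65.5%, near the 69.2% of all tested genes. Crat, the carnitine acetyltransferase, rose from 65.2 ± 0.500 to 80.0 ± 1.08 CPM (log2 fold change 0.30, adjusted p = 9.85e-10). Pccb, a subunit of propionyl-CoA carboxylase, rose by 0.33 (adjusted p = 2.93e-08). Of 33 other peroxisomal genes, 30 were tested, and 17 were higher and 5 lower with a median of 0.20. Here 73.3% were called, also near the share of all tested genes. Idh1, the NADP isocitrate dehydrogenase of cytosol and peroxisomes, rose by 0.35. Acot8, a peroxisomal acyl-CoA thioesterase, had the larger change of 0.78, from 11.6 ± 0.081 to 19.9 ± 1.65 CPM (adjusted p = 5.57e-12). The split of calls in both lists rested on the scale. On TPM some genes called higher lost the call and others were newly called lower. Crat (0.15), Pccb (0.18), Idh1 (0.21) and Acot8 (0.62) were still called higher on TPM.

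The remaining lists moved in both directions. The share called was 100% for the 4 other peroxins and 81.2% for uptake and activation. It was 78.6% for PPAR partners and targets and also for synthesis, against 69.2% of all tested genes. Of the 4 other peroxins in the table, 2 rose and 2 fell. Of 18 genes of fatty acid uptake and activation, 16 were tested, and 10 were higher and 3 lower. Dbi, the acyl-CoA binding protein, rose by 0.45 and Slc27a1, a fatty acid transport protein, by 0.31, while Acbd3, a Golgi protein with an acyl-CoA binding domain, had a log2 fold change of -0.46. Of 16 PPAR partners and target genes, 14 were tested, and 5 were higher and 6 lower: the lipid droplet coat gene Plin2 fell from 783 ± 3.74 to 601 ± 14.5 CPM (-0.38, adjusted p = 3.41e-19), while Ucp2, a mitochondrial carrier, rose by 0.47 and Rxra, the partner receptor of the PPARs, by 0.42. Of 14 genes of malonyl-CoA and fatty acid synthesis, 7 were higher and 4 lower. The desaturase gene Scd1 rose 2.25-fold, from 35.0 ± 2.63 to 79.0 ± 0.872 CPM (1.17, adjusted p = 1.07e-23), Scd2 rose by 0.27, and fatty acid synthase (Fasn) had a log2 fold change of -0.28 (adjusted p = 4.70e-10).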

How the data were processed

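RNA of sorted cells labelled as alveolar macrophages was sequenced in 3 WT and 3 KO libraries. Per the submitters' processing notes, which state no roles, HISAT, Bowtie2 and GRCm38.p6 were used. In the sources used here, no counter, strand setting or annotation is given. The authors deposited estimated counts per gene (not whole for 8.66% to 9.19% of genes, and rounded here), FPKM and TPM, per the file headers. A deposited normalised count signal and group means were not used, and a deposited heat map table held log2(FPKM + 1) values.

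KO was compared with WT by edgeR 4.0.16 (quasi-likelihood test, TMM scaling with factors of 0.979 to 1.021, filterByExpr, group only; R 4.3.3) over all genes, with Benjamini-Hochberg adjustment over the 11817 genes left after the filter removed 4007. Every adjusted p is from this fit unless another test, tool, setting or scale is named. Those on FPKM and TPM are from limma on log2 values. Libraries of a group differed by more than counting noise. Alternatives used DESeq2 1.42.0, limma 3.58.1, other scalings, filters and units, a replicate block and each library left out. CPM values are counts over TMM-adjusted totals. Partner ratios used exact permutation tests (Python 3.11.15). Promoters came from RefSeq windows and coding sequences from GENCODE M21 transcripts, both on GRCm38, and peptide signals were not analysed here.

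All members are named, and of every other pathway list up to 3 called genes with the smallest p, some of which are not reported here. The members and lists were chosen with earlier results of these data known.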

Additional observations from a re-analysis of the deposited data

How the results depend on the processing

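Across 22 alternatives, 6 members were called in every one that tested them (Acadl, Echs1, Hsd17b4, Acaa1a, Acaa1b and Pex6), and 8 more lost the call only with an assumed coefficient of variation of 0.1 or a test against 1.2-fold (Cpt1a, Acadvl, Acadm, Etfa, Etfdh, Eci1, Scp2 and Ppard). The call of 13 members was lost or turned elsewhere, 7 were called only elsewhere, and Acaa2, Abcd3, Ehhadh, Pex5 and Pex14 were called nowhere. With the assumed variation of 0.1, 2180 genes were higher and 2226 lower. Against 1.2-fold they were 1857 and 1914. The members then numbered 6 higher and 2 lower, and 4 and 2 (mitochondrial 3 and 1, then 1 and 1; peroxisomal 2 higher in both; peroxins 1 higher and 0 lower in both). On TPM with a pseudocount of 1 or 0.1, 2463 or 2466 genes and 8 members were higher, and 15 members lower (mitochondrial 4 higher, peroxisomal 2 lower, peroxins 1 higher and 6 lower). With library totals only, 14 members were lower, among them 2 peroxisomal enzymes and 5 peroxins. Peroxins lower numbered 5 on FPKM (4 with no filter), 2 with the stricter filter, 0 with DESeq2 and 0 to 2 with a library left out. On FPKM with no filter, 7 mitochondrial enzymes were higher.

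The mitochondrial median log2 fold change was 0.053 with totals only, 0.060 to 0.061 on FPKM and -0.020 on TPM. The peroxisomal median was 0.025, 0.023 and -0.056 to -0.058, and 0.070 to 0.107 with a library left out. With Acaa1a and Acaa1b summed, an alternative chosen after seeing the data, it was 0.117 with 0 lower. The peroxin median was -0.013, then -0.014 to -0.015, then -0.093 to -0.096, and 0.022 to 0.057 with a library left out. Genes that were called in either fit turned on TPM: Hadha to -0.056 or -0.057, Hadhb to -0.042, Acox3 to -0.022 or -0.023, Cat to -0.127 (and -0.044 with totals only), and Pex7 to -0.107 or -0.110. Of genes called in neither, Acaa2, Abcd3, Pex2, Pex5 and Pex14 also turned negative on TPM. The cause was not tested, beyond the shift of all genes between scales.

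With a replicate block, 4121 genes were higher and 4200 lower, and 2 peroxins were lower, as Pex10 (-0.23) was then called with an adjusted p of 0.0465. Same-numbered libraries share only a number: the correlations of their deviations were -0.018, 0.028 and 0.019, and not every library correlated best with its own number. Counts of a few per library, as for Acaa1b in KO and Ppara, limit what depth can show.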

Other observations

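The authors' deposited heat map table held 6784 genes, with 20 of the 40 members among them. The rule that selected them is not stated.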
